A study of Mus musculus with 9 samples.

Results

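The transcripts described here are those of 10 antiviral effector genes in whole mouse brain: Ifit1, Ifit2, Ifit3, Ifit3b, Isg15, Ifitm2, Ifitm3, Bst2, Ifi27 and Rsad2. They were taken by name from the 49315 gene rows of the raw count table, and all 10 passed the filter on low counts that left 18492 genes for testing. PolyA-selected RNA was sequenced from brains of male C57BL/6J wild-type mice in 2 age groups, with no treatment or engineered allele in either group. The young group held 5 mice, aged 3 months by the sample labels and 3 or 4 months by the study's methods, and the old group held 4 mice aged 33 months, numbered 1, 3, 4 and 5. A table column headed as old replicate 2 matched no labelled sample and was not analysed here, so each statement on all old mice covers these 4. The comparison asks how aging changes transcript abundance in the brain, and whole tissue was used, so that fewer cells of a type and less RNA per cell cannot be told apart.

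Interferons are secreted proteins that cells release when they sense foreign or misplaced nucleic acid. They bind surface receptors whose JAK kinases start a signal to the nucleus, where transcription factors bind interferon-stimulated response elements in promoters. The 10 genes are among the targets of this pathway and act at different steps of infection. IFIT proteins bind viral RNA and block its translation, ISG15 is a ubiquitin-like modifier that is conjugated to other proteins, IFITM proteins sit in membranes and hinder virus entry, BST2 (tetherin) holds budding virus at the cell surface, IFI27 is a small hydrophobic mitochondrial and membrane protein, and RSAD2 (viperin) is a radical SAM enzyme that makes a chain-terminating nucleotide.

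The libraries held 14229259 to 21150439 counts each, and the young and old libraries overlapped in depth. Values are in CPM, counts scaled to 1 common library size with TMM factors. The tissue label was checked by marker genes of neurons, oligodendrocytes and astrocytes, which were present in every library, with summed levels of 4375 to 4927 CPM for 5 neuron markers. A pair of libraries stood apart in other cell types' markers. Young replicate 4 had a summed level of 446 CPM over 10 markers of activated microglia, where the other young mice reached at most 289 CPM. Old replicate 4 had a summed level of 459 CPM over 7 blood genes, where the other old mice reached at most 265 CPM. Its S100a8, a neutrophil gene, stood at 21.01 CPM against at most 1.43 CPM in the other old mice.

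All 10 effector transcripts were more abundant in old brain. Every old mouse was above every young mouse for each of the 10 genes, a separation that 6.50% of the tested genes showed in this direction. The adjusted p was under 0.05 for all 10 (edgeR quasi-likelihood test, Benjamini-Hochberg adjustment over all tested genes), against 6.20% of all tested genes higher in old brain. A total of 9 also had a log2 fold change over 0.58, against 2.28% of all tested genes, and the exception was Ifit2. The log2 fold changes ranged from 0.50 to 1.78 with a median of 1.33, where the median of all tested genes was -9.2e-05 and their 99th percentile 1.09. With both mice numbered 4 left out, a choice made after the data were seen, 8 of the 10 were called, and Ifitm2 was the further exception.

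**Figure D1:**
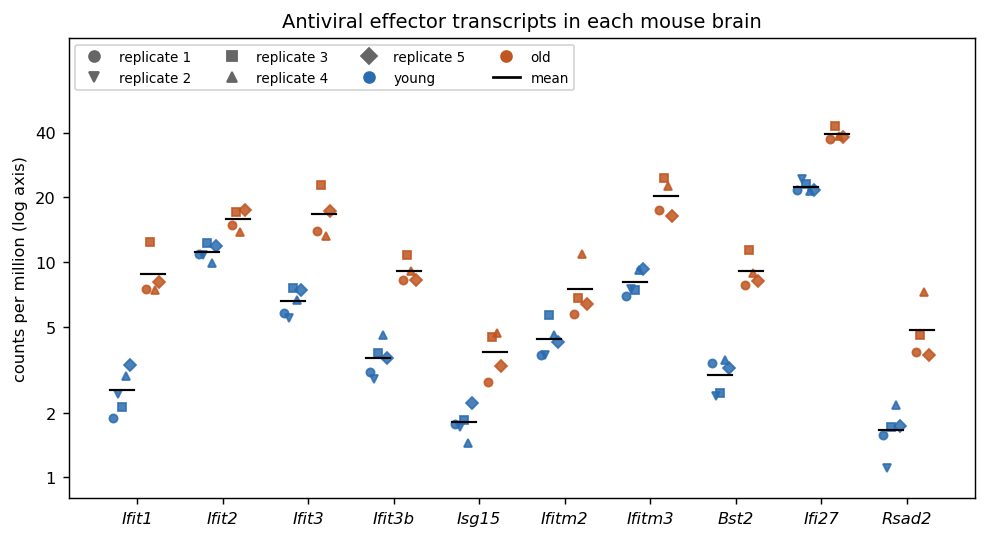
Level in CPM (log axis) of the 10 effector genes in each brain, with young mice in blue, old mice in orange, a marker shape for each replicate number and a black bar at the mean. For each gene the old points lie above the young points, with the narrowest gap for Ifitm2, whose lowest old mouse was 1.01 times its highest young mouse, and the widest for Bst2 at 2.23 times.

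The IFIT proteins are built of tetratricopeptide repeats. IFIT1 recognizes the unmethylated cap of viral mRNA, and its transcript showed the largest change of the 10. Ifit1 (ENSMUSG00000034459) stood at 1.88, 2.43, 2.13, 2.95 and 3.34 CPM in young replicates 1 to 5. In old replicates 1, 3, 4 and 5 it stood at 7.54, 12.3, 7.39 and 8.10 CPM. The lowest old mouse was thus 2.21 times the highest young mouse, and old replicate 3 stood above the other old mice. The log2 fold change was 1.78 ± 0.188 (SE, edgeR adjusted p = 9.4e-05), a ratio of 3.44.

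IFIT2 is the family member that binds AU-rich RNA and partners with the other IFITs. Ifit2 (ENSMUSG00000045932) was at 10.9, 10.8, 12.3, 9.90 and 11.9 CPM in young replicates 1 to 5 and at 14.8, 17.1, 13.8 and 17.5 CPM in old replicates 1, 3, 4 and 5. The groups were separate but close, with the lowest old mouse 1.12 times the highest young mouse. Its log2 fold change of 0.50 ± 0.0896 (SE, edgeR adjusted p = 0.0033) was the smallest of the 10, and it passed the test but not the fold threshold. On the log2(TPM + 1) scale the change was 0.29 (limma, adjusted p = 0.46), where the median of all genes was -0.14, and young replicate 3, at 10.7 TPM, lay within the old range of 7.91 to 10.8 TPM.

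Ifit3 and Ifit3b are neighbouring copies of a gene whose human counterpart encodes a protein that stabilizes IFIT1 on its target RNA. Their coding sequences, of 1209 bases each, differed at 11 bases (99.1% identity). Because reads that fit both copies were not counted, the deposited values rest on the places where the copies differ. Of all stretches of 150 bases in the transcript, the read length of the study, 18.6% in Ifit3 and 16.0% in Ifit3b were found letter for letter in the other copy, and 1.24% in Ifit1 were found in its neighbour Ifit1bl2. Ifit2, Isg15, Ifitm3, Bst2, Ifi27 and Rsad2 shared no such stretch with another annotated gene.

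Ifit3 (ENSMUSG00000074896) rose from 5.80, 5.48, 7.56, 6.67 and 7.41 CPM in young replicates 1 to 5 to 13.97, 22.9, 13.2 and 17.2 CPM in old replicates 1, 3, 4 and 5. Ifit3b (ENSMUSG00000062488) rose from 3.08, 2.88, 3.78, 4.59 and 3.58 CPM to 8.29, 10.8, 9.08 and 8.28 CPM in the same order of mice. Old replicate 3 was highest for both. The log2 fold changes were 1.35 ± 0.153 for Ifit3 (SE, edgeR adjusted p = 0.00015) and 1.34 ± 0.138 for Ifit3b (SE, edgeR adjusted p = 8.2e-05). With the counts of both copies summed into 1 row, which removes the choice between them for the reads that were counted, the log2 fold change was 1.345.

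ISG15 is attached to lysines by a cascade that mirrors ubiquitin conjugation, with UBA7 as the activating enzyme, UBE2L6 as the conjugating enzyme and HERC6 as the main mouse ligase. TRIM25 is a ubiquitin ligase that also takes part in ISG15 transfer, and USP18 removes the modifier and damps interferon receptor signalling. Isg15 (ENSMUSG00000035692) itself had few reads, with 27 to 36 counts in each young library and 52 to 86 in each old one. It stood at 1.78, 1.72, 1.85, 1.45 and 2.22 CPM in young replicates 1 to 5 and at 2.76, 4.51, 4.71 and 3.29 CPM in old replicates 1, 3, 4 and 5. The lowest old mouse was 1.24 times the highest young one. The log2 fold change was 1.08 ± 0.190 (SE, edgeR adjusted p = 0.0031), and it was 0.88 with both mice numbered 4 left out.

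Of the 5 conjugation and removal genes, 3 were called higher in old brain, against 2.28% of all tested genes, and none lower. The median of the 5 log2 fold changes was 0.74. Usp18 rose by 1.42 ± 0.207 on the log2 scale (SE, edgeR adjusted p = 0.00093), from 0.679 to 1.69 CPM across young mice to 3.34 to 4.09 CPM across old mice. Ube2l6 rose by 0.87 ± 0.171 (SE, edgeR adjusted p = 0.0060) and Uba7 by 0.74 ± 0.131 (SE, edgeR adjusted p = 0.0032). The ligase gene Herc6 had a value of 0.17 on the log2 scale and did not pass the test (edgeR adjusted p = 0.29), nor did Trim25 with 0.35 (0.072), and for both the ages overlapped. Herc6 shares 1269 exon bases with the overlapping gene Gm45193 and Uba7 233 with Gm20661, on the same strand, so that reads there could not be given to 1 gene.

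IFITM proteins are short membrane proteins that restrict fusion of virus with endosomes. Ifitm3 (ENSMUSG00000025492) stood at 6.95, 7.52, 7.42, 9.18 and 9.27 CPM in young replicates 1 to 5 and at 17.5, 24.6, 22.6 and 16.4 CPM in old replicates 1, 3, 4 and 5. The lowest old mouse was 1.77 times the highest young mouse, and the log2 fold change was 1.32 ± 0.128 (SE, edgeR adjusted p = 4.9e-05). Ifitm2 (ENSMUSG00000060591) stood at 3.71, 3.71, 5.70, 4.59 and 4.26 CPM in young replicates and at 5.74, 6.84, 10.9 and 6.40 CPM in old replicates 1, 3, 4 and 5. Its lowest old mouse and its highest young mouse, young replicate 3, were nearly level.

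The log2 fold change of Ifitm2 was 0.78 ± 0.186 (SE, edgeR adjusted p = 0.017), and old replicate 4, the mouse with high blood genes, carried part of it. Without that mouse it was 0.53 (edgeR adjusted p = 0.041), under the fold threshold. The part of blood RNA in this value was not tested. A further 268 exon bases of Ifitm2 are shared with the overlapping gene Gm45717, which had a count of 0 in all mice, and 23.5% of the stretches of 150 bases of Ifitm2 were found in it.

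As a share of the counts of Ifitm2 and Ifitm3 together, Ifitm2 took 34.8%, 33.0%, 43.5%, 33.3% and 31.5% in young replicates 1 to 5 and 24.7%, 21.8%, 32.5% and 28.1% in old replicates 1, 3, 4 and 5. The mean share was 35.2% ± 4.75 (SD, n = 5) in young and 26.8% ± 4.63 (SD, n = 4) in old brain. The old mice thus lay lower, with 1 old mouse inside the young range. Ifit3b took 32.6% to 40.8% of the counts of Ifit3 and Ifit3b in young and 32.1% to 40.8% in old mice, so that these copies kept nearly the same split. Exact binomial (Clopper-Pearson) 95% intervals of these shares cover counting error only.

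**Figure D2:**
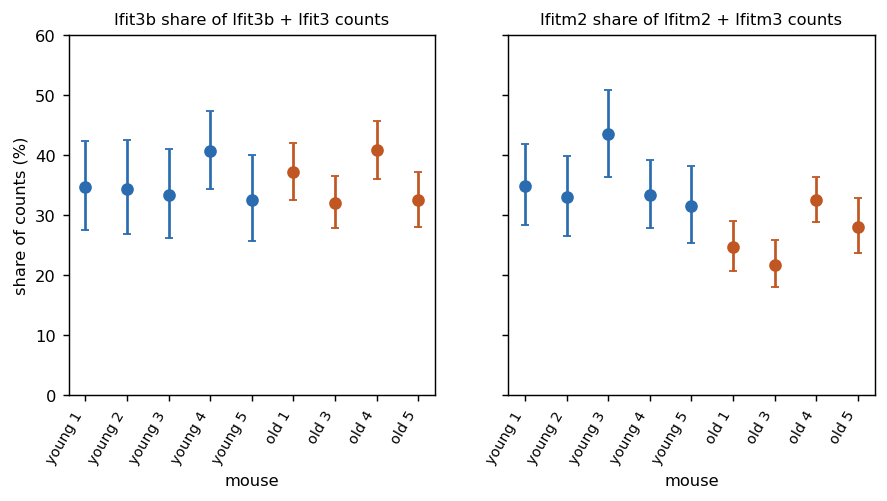
Share of counts (%) taken by Ifit3b of Ifit3b and Ifit3 together and by Ifitm2 of Ifitm2 and Ifitm3 together, in each young (blue) and old (orange) mouse, with exact 95% binomial intervals as bars. The Ifit3b share lies between 32.1% and 40.8% at both ages, and the Ifitm2 share is 31.5% or more in young mice and 32.5% or less in old mice.

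Bst2 (ENSMUSG00000046718) was at 3.40, 2.38, 2.47, 3.53 and 3.21 CPM in young replicates 1 to 5 and at 7.86, 11.4, 8.92 and 8.16 CPM in old replicates 1, 3, 4 and 5. The ages were the farthest apart of the 10 by this measure, and the log2 fold change was 1.58 ± 0.148 (SE, edgeR adjusted p = 3.9e-05). Rsad2 (ENSMUSG00000020641), the viperin gene, was at 1.57, 1.11, 1.72, 2.17 and 1.73 CPM in young replicates and at 3.83, 4.58, 7.28 and 3.70 CPM in old replicates 1, 3, 4 and 5. Old replicate 4 was again the highest. The log2 fold change of Rsad2 was 1.54 ± 0.230 (SE, edgeR adjusted p = 0.0011), and 1.27 without that mouse.

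Ifi27 (ENSMUSG00000064215) was the steadiest of the 10 between mice. It was at 21.5, 24.4, 22.9, 21.4 and 21.6 CPM in young replicates 1 to 5 and at 37.5, 43.1, 38.5 and 38.2 CPM in old replicates 1, 3, 4 and 5. The coefficient of variation was 5.85% among young and 6.51% among old mice, where counting alone would give 5.03% and 3.87%. Its log2 fold change of 0.81 thus carried the smallest standard error of the 10 (0.0582, edgeR adjusted p = 5.6e-06) and ranked 4 of all tested genes by p, although 7 of the other genes changed by more.

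The spread between mice set how firmly each value stands. Among young mice the coefficient of variation ran from 5.85% for Ifi27 to 23.3% for Ifit1, where counting error alone would give 5.03% and 14.9%. For Isg15 it was 15.5%, below the 17.8% of counting error, so that differences among young mice were not detectable for this gene at this depth. Among old mice it ran from 6.51% for Ifi27 to 34.4% for Rsad2, where counting error alone would give 11.0% for Rsad2.

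Not all other members of the same families passed the test. Of 9 relatives, 6 could be tested, 1 was called higher, against 2.28% of all tested genes, and none lower. The median of the 6 log2 fold changes was 0.46. Ifi27l2a, a short homologue next to Ifi27, had the largest value of any gene in these families, a log2 fold change of 2.07 ± 0.237 (SE, edgeR adjusted p = 0.00015), from 0.412 to 0.941 CPM across young mice to 2.39 to 3.56 CPM across old mice. The values were 0.62 for Ifitm1 (adjusted p = 0.083), 0.64 for Ifit1bl2 (0.16), 0.31 for Ifit1bl1 (0.29), 0.14 for Ifitm7 (0.80) and -0.04 for Ifitm10 (0.82), all by edgeR and all with overlapping ages. Ifitm1 and Ifit1bl2 were above the fold threshold with few counts. Ifitm1 had 14 to 39 per young and 35 to 57 per old library, and Ifit1bl2 had 8 to 17 and 13 to 26. Ifitm10 was the best counted of these relatives, at 21.6 ± 1.46 CPM (SD, n = 5) in young and 20.9 ± 2.64 CPM (SD, n = 4) in old brain. Ifitm5, Ifitm6 and Ifi27l2b were too low to test, with 86 counts in all over the 9 libraries.

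**Figure D3:**
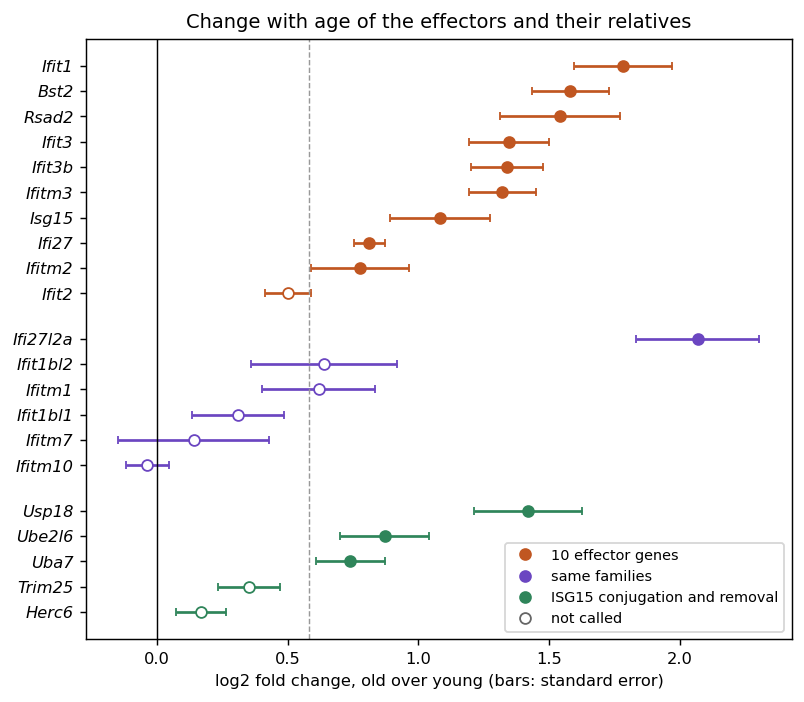
Log2 fold change of old over young brain, with the standard error as bars, for the 10 effector genes (orange), the tested relatives in the same families (purple) and the ISG15 conjugation and removal genes (green). Filled points were called (adjusted p under 0.05 and absolute log2 fold change over 0.58, the dashed line), and the effectors range from 0.50 for Ifit2 to 1.78 for Ifit1.

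Because the 10 genes moved together, the promoters were read for the core letters of the interferon-stimulated response element, GAAANNGAAA, or TTTCNNTTTC on the other strand. RefSeq promoter windows (GRCm38.p6) of 300 bases, from 250 before to 50 after each start site, were given for 9 of the 10 genes, and 8 of these held the letters, as did 3.44% of all 32851 windows. Each stretch runs 5′ to 3′ on the strand of its gene, with the matching letters in capitals, since these are the letters that the genes share.
Ifit1, chr19:34640770-34640828, plus strand: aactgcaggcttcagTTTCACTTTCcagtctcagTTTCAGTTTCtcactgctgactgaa
Ifit3, chr19:34583358-34583431, plus strand: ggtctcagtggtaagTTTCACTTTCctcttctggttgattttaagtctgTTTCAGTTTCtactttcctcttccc
Ifit3b, chr19:34607754-34607827, plus strand: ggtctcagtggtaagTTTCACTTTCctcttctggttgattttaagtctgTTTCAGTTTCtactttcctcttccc
Isg15, chr4:156200860-156200911, minus strand: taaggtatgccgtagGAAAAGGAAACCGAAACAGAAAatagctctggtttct
Ifitm2, chr7:140955988-140956022, minus strand: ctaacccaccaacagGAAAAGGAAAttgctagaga
Ifitm3, chr7:141010716-141010742, minus strand: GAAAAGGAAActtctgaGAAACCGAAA
Bst2, chr8:71537572-71537617, minus strand: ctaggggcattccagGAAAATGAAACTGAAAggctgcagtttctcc
Rsad2, chr12:26456548-26456587, minus strand: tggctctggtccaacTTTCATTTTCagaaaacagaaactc

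Isg15 held 3 overlapping matches and Bst2 held 2, while Ifit1, Ifit3, Ifit3b and Ifitm3 each held 2 separate matches and Ifitm2 and Rsad2 held 1. The matches lay upstream of the RefSeq start in 7 of the genes, the first beginning between 46 and 188 bases before it, and for Ifitm3 just after it. The stretches of Ifit3 and Ifit3b were the same letter for letter, and their whole windows were 86.0% identical, against 51.7% for those of Ifitm2 and Ifitm3. Both windows of Ifit2, the gene with the smallest change, held no match, which says only that these letters are not in those windows. Among relatives, Ifit1bl1 and Ifit1bl2 held matches and 5 others of the 7 with windows did not. Ifit1bl2 starts head to head with Ifit1, and 1 of its 2 windows held 2 matches. The stretch printed for Ifit1 lies between the annotated starts of these genes, so the matches of both need not be separate. None of the 4 conjugation and removal genes with windows held a match. A match is a description of the letters and not a measured binding site.

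The sizes of the changes were compared between genes by the log2 ratio of each pair in each mouse, with a two-sided exact permutation test over every way to divide the 9 mice into 5 and 4. Of 45 pairs, 22 had an unadjusted p under 0.05 and 0 an adjusted p under 0.05, the lowest adjusted p being 0.060. The smallest p that the design allows is 0.0079, and 6 pairs reached it. Ifit2 took part in 8 of the 22 pairs and rose less than its partner in each, as with Ifit1, where the log2 ratio of Ifit1 to Ifit2 went from -2.11 ± 0.357 (SD, n = 5) to -0.85 ± 0.274 (SD, n = 4), a change of 1.25 (exact permutation p = 0.0079, adjusted p = 0.060). Ifi27 took part in 7 and rose less in 6, and Ifit1 took part in 6 and rose more in each. These directions follow from the order of the changes, with Ifit2 the smallest and Ifit1 the largest, and are not separate results. The ratio of Ifit3 to Ifit3b changed by -0.02 (exact permutation p = 0.94), and that of Ifitm2 to Ifitm3 by -0.58 (exact permutation p = 0.016, adjusted p = 0.071).

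Old mice did not rank the same for all genes. Old replicate 3 was the highest old mouse for 6 genes, namely Ifit1, Ifit3, Ifit3b, Ifitm3, Bst2 and Ifi27, and the lowest for none. Old replicate 4 was the highest for Isg15, Ifitm2 and Rsad2 and the lowest for Ifit1, Ifit2 and Ifit3. Its deviation from the mean of the old mice was 0.63 for Rsad2 and 0.58 for Ifitm2 but -0.31 for Ifit3 (log2 CPM). Old replicate 1 was the lowest for Isg15, Ifitm2, Bst2 and Ifi27. Averaged over the 10 genes, the level relative to the young mean was 0.97, 1.41, 1.27 and 1.06 (log2) in old replicates 1, 3, 4 and 5, while young mice lay between -0.17 and 0.13.

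**Figure D4:**
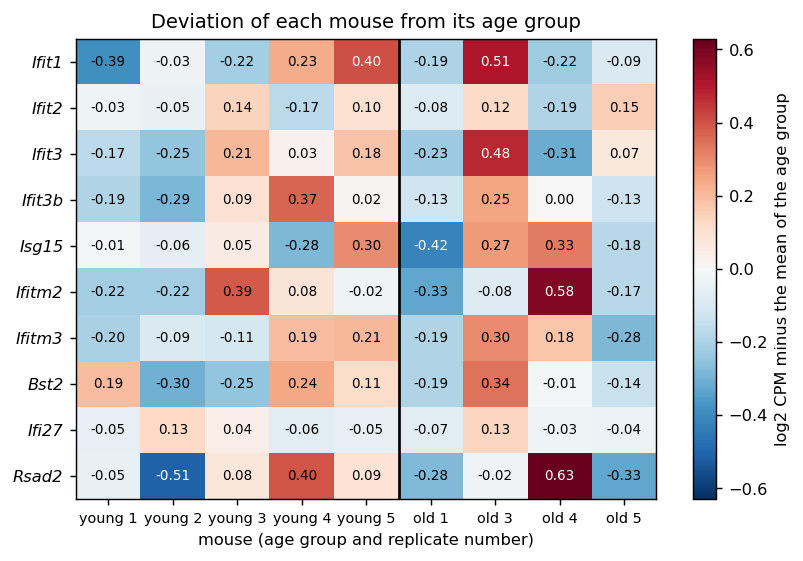
Deviation of each mouse from the mean of its age group, in log2 CPM, for each effector gene (rows) and mouse (columns), with red above and blue below the mean and each value printed. Old replicate 3 is 0.51 above for Ifit1, and old replicate 4 is 0.63 above for Rsad2 and 0.31 below for Ifit3.

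The genes lie in several groups on the chromosomes (GRCm38, GENCODE M21). The Ifit genes form 1 cluster of 99.3 kb on chromosome 19, from 34550694 to 34650009, in the order Ifit2, Ifit3, Ifit1bl1, Ifit3b, Ifit1bl2 and Ifit1. Within it the called genes Ifit3, Ifit3b and Ifit1 alternate with the uncalled Ifit1bl1 and Ifit1bl2, which are read from the other strand. No pattern by strand is read from this, since Ifit1bl2 had few counts and its log2 fold change of 0.64 ± 0.279 (SE, edgeR) was above that of Ifit2. Tested genes within 100 kb of the cluster had log2 fold changes of 0.05 to 0.46, with 0 of 4 called by edgeR or DESeq2 and 1, Slc16a12, at an unadjusted p under 0.05. Ifi27 and Ifi27l2a lie on chromosome 12, starting at 103434211 and 103442167, and 0 of the 5 tested genes within 100 kb of them were called by edgeR or DESeq2 or had an unadjusted p under 0.05, with values of -0.04 to 0.25.

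Around the Ifitm genes on chromosome 7 other genes were called too. Ifitm2 (140954837 to 140955987) and Ifitm3 (141009586 to 141010770) were called and Ifitm1 between them was not. Of 11 tested genes within 100 kb, 2 were called higher, against 2.28% of all tested genes. These were Nlrp6, an inflammasome sensor gene, with a log2 fold change of 1.05 (edgeR adjusted p = 0.021) and Sigirr, which encodes a negative regulator of interleukin and Toll-like receptor signalling, with 0.78 (edgeR adjusted p = 0.028). Isg15 (chromosome 4, 156199424 to 156200818), Bst2 (chromosome 8, 71534255 to 71537456) and Rsad2 (chromosome 12, 26442746 to 26456452) lie apart from the others.

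**Figure D5:**
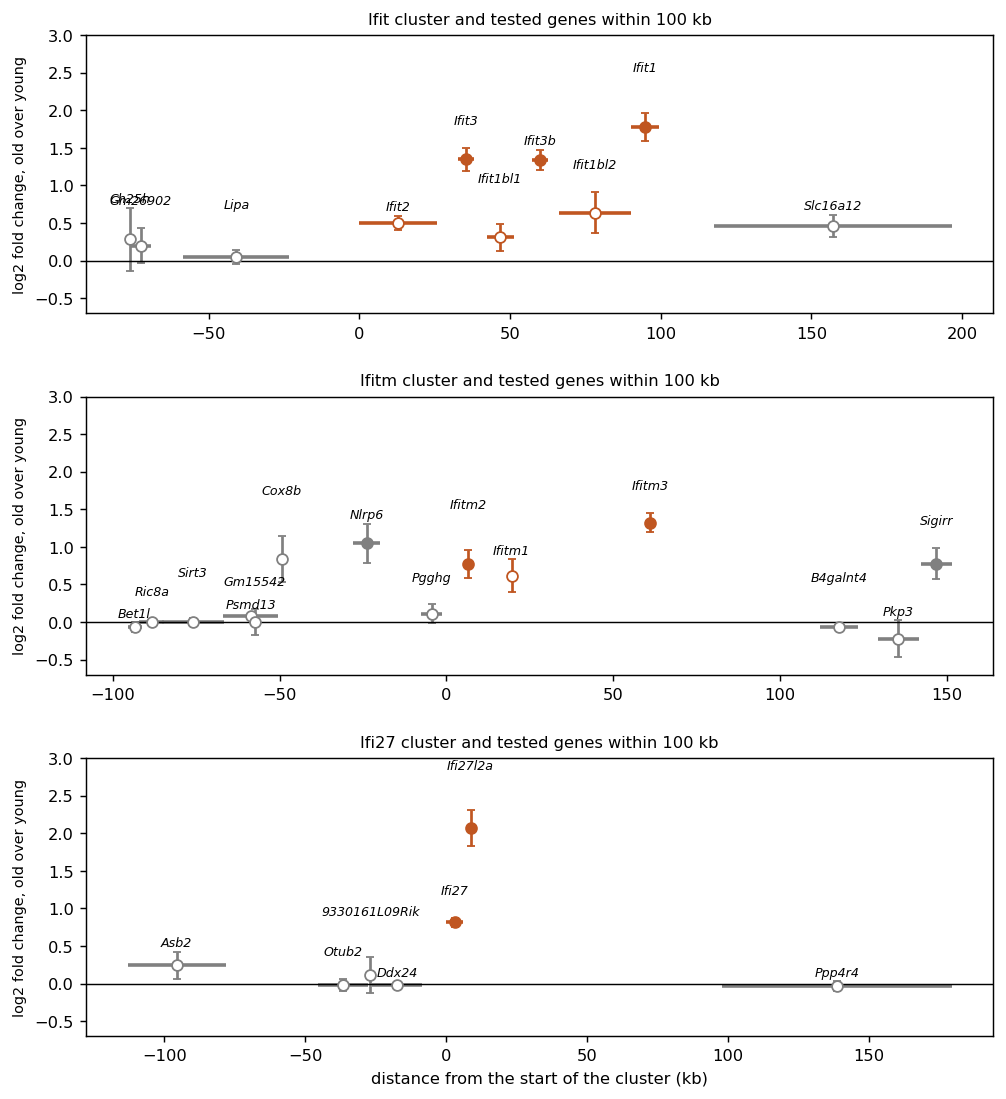
Log2 fold change of old over young brain, with the standard error as vertical bars, along the Ifit, Ifitm and Ifi27 clusters, by distance in kb from the start of the cluster. Horizontal bars span each gene, orange marks genes of the cluster and grey its tested neighbours within 100 kb, and filled points were called. In the Ifit cluster the called Ifit3, Ifit3b and Ifit1 lie at 1.34 to 1.78, and the tested genes outside the cluster at 0.46 or less.

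Levels were compared between genes per transcript length, in the deposited TPM values, which correct the counts for the length of the gene. In young brain the order of mean levels was Ifi27 at 40.1 TPM, Ifitm3 at 30.8, Ifitm2 at 17.9, Ifit3 at 9.94, Bst2 at 8.56, Ifit2 at 7.52, Isg15 at 6.27, Ifit3b at 4.67, Ifit1 at 2.45 and Rsad2 at 0.997. Of these neighbours, Ifit3 and Bst2, Bst2 and Ifit2, and Isg15 and Ifit3b changed places in at least 1 of the 5 young mice. In old brain Ifitm3 was first at 68.4 TPM, ahead of Ifi27 at 61.8 in 3 of 4 mice. Bst2 was at 23.1 and Ifit3 at 22.0 TPM, and each was ahead in 2 of 4 mice. Ifit2 went from rank 6 to rank 8, at 9.30 TPM, while Rsad2 was last in every mouse at both ages, at 2.57 TPM in old brain. CPM per kb of exon gave the same order of means at both ages.

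The listed interferon genes themselves had almost no counts. Of the Ifna genes the list held Ifna1, Ifna2, Ifna4, Ifna5 and Ifna13. Of 11 ligand genes, 8 had no count in any mouse, among them Ifnb1, and the 11 genes together had 11 counts over all 9 libraries. A count of 0 allows up to 0.142 to 0.211 CPM per library (3 counts), so that a level below this was not detectable at this depth.

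Of 15 receptor and signalling genes, 2 were called higher, against 2.28% of all tested genes, and none lower. They had a median log2 fold change of 0.18. Irf7, the factor that amplifies interferon transcription and is itself interferon-induced, rose by 2.06 ± 0.289 on the log2 scale (SE, edgeR adjusted p = 0.00069), from 1.15, 1.99, 1.99, 2.46 and 2.16 CPM in young replicates 1 to 5 to 6.69, 14.03, 7.71 and 4.52 CPM in old replicates 1, 3, 4 and 5. Old replicate 3, the highest mouse for 6 effectors, was also the highest for Irf7. Socs3, a feedback inhibitor of JAK kinases, rose by 0.72 ± 0.137 (SE, edgeR adjusted p = 0.0049). Log2 fold changes of transcription factor genes of the list were 0.36 for Irf9 (adjusted p = 0.015) and 0.18 for Stat2 (0.087). Of the receptor genes, Ifngr1 was at 0.35 (0.029), Ifngr2 at -0.22 (0.025), Ifnar1 at -0.03 (0.74) and Ifnar2 at 0.04 (0.77), all by edgeR.

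Of 26 other interferon-induced effector genes, 23 were tested, 18 were called higher (17 by DESeq2) and none lower. Their median log2 fold change was 0.99, and 2.28% of all tested genes were called higher by edgeR. The largest were Zbp1, a sensor of Z-form nucleic acid, at 1.90 (adjusted p = 0.0055), Oas1b at 1.89 (0.0014) and Oas2, an oligoadenylate synthetase, at 1.78 (0.00014), all by edgeR. Zbp1 and Oas1b were low, at 0.0687 to 0.418 CPM and 0.309 to 0.821 CPM across young mice. The list members not called include Cmpk2, which lies next to Rsad2 in the genome, at a log2 fold change of 0.05 (edgeR adjusted p = 0.65) and a mean of 24.0 CPM in young brain.

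The genes whose profile over the 9 mice was most like the mean profile of the 10 effectors were Abca8a, Trim30a, Pcdhb8, Xaf1 and Lgals9. They were chosen as the 5 of 14493 other genes with the smallest root mean square difference, after each profile was centred on its young mean. Their difference was 0.08 to 0.15 log2 units. With this centring the measure rests largely on the step between ages, and their log2 fold changes were 1.03 to 1.26. It does not show that these genes vary with the effectors from mouse to mouse within an age. Abca8a, a membrane transporter gene, came first, at 10.5 to 14.2 CPM in young and 24.6 to 31.0 CPM in old mice. Trim30a and Xaf1 belong to the list of other interferon-induced genes.

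Marker lists of other cell types gave these values beside the effectors. For comparison, 2.28% of all tested genes were called higher in old brain by edgeR. The summed level of the 10 effectors was 60.6 to 68.5 CPM in young and 120 to 158 CPM in old mice. Activated microglia markers were at 262 to 446 CPM in young and 371 to 489 CPM in old mice, with 3 of 10 called higher, and homeostatic ones at 245 to 340 CPM and 326 to 383 CPM, with 1 of 10 called by edgeR, 0 by DESeq2 and 6 at an unadjusted edgeR p under 0.05. By summed level young replicate 4 lay within the old range for both lists, and its effectors, at 66.4 CPM, lay within the young range. Of its activated sum, 283 CPM came from Ctsd. Its levels of the called Cd68, Lgals3 and Gpnmb, at 10.8, 3.24 and 7.68 CPM, were below every old mouse. Its Itgax, Clec7a and Lpl were above every old mouse. Among young mice it was the highest for Ifit3b, Bst2 and Rsad2 and the lowest for Ifit2, Isg15 and Ifi27. Endothelial markers were at 270 to 283 CPM in young and 316 to 369 CPM in old mice, with 2 of 10 called. These were Ly6a and Ly6c1, which interferons also induce in many cells. Pecam1, Flt1 and Cdh5 had log2 fold changes of 0.38, 0.25 and 0.26, under the fold threshold, each with an edgeR adjusted p under 0.05. Higher values in old brain were found for 7 of the 10, and 6 had an unadjusted p under 0.05. Border macrophage markers were at 7.08 to 9.003 CPM and 10.2 to 15.1 CPM, with 1 of the 5 tested genes called.

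All 7 blood genes were called higher in old brain by edgeR and 5 of them by DESeq2, at 86.7 to 117 CPM in young and 130 to 459 CPM in old mice, and none was at 0 in all mice. T cell markers summed to 5.03 to 5.80 CPM and 4.83 to 6.75 CPM, mostly from Trac and Trbc2. These were the 2 of 9 tested, at log2 fold changes of -0.23 and -0.31. Of them 0 were called by edgeR or DESeq2 and 1 had an unadjusted p under 0.05. Cd8a, too low to test, was at 0 to 0.157 CPM in young and 0.274 to 0.939 CPM in old mice. Cd3d, Cd3g and Cd8b1, also too low to test and at most 0.423 CPM, had every old mouse above every young mouse. For Cd3d and Cd8b1 the highest young mouse was at 0.1045 CPM and the lowest old mouse at 0.1094 and 0.1062 CPM. Such levels are under 3 counts in any library, so no difference is read from them. The share of 6.50% given for tested genes does not cover untested ones. Cd3e, Nkg7 and Gzmb overlapped between the ages. Cd3e, Cd3d and Cd3g were at most 0.338 CPM in any mouse. Dendritic cell markers were at 393 to 439 CPM and 415 to 452 CPM, mostly from the broadly expressed Tcf4, with 0 of 4 tested genes called by edgeR or DESeq2 and 2 at an unadjusted p under 0.05, and the defining Xcr1 was at most 0.0687 CPM. Neuron, astrocyte, oligodendrocyte and pericyte lists had 0, 1, 0 and 0 genes called by edgeR, the same counts by DESeq2, and 1, 2, 3 and 2 genes at an unadjusted p under 0.05. The part of these cell types in the effectors' change was not tested.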

How the data were processed

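RNA-seq of whole brain was analysed for 5 young and 4 old male mice. Each table held 1 further column, headed as old replicate 2, that matched no labelled sample and was not analysed here. According to the study's methods, the authors trimmed reads with Trimmomatic, aligned them to GRCm38 with STAR and assigned reads with a single mapping to gene exons with featureCounts. In the count table as deposited, values are whole read counts per gene, not normalized. The deposited TPM values divide counts by gene length, which matched the merged exon length of GENCODE M21 for the 10 genes. The deposited normalized counts are a signal, counts divided by 1 size factor per library, for 17994 genes. No name was found for 259 gene IDs.

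Counts were filtered with edgeR's filterByExpr (minimum count 10, total 15) and scaled with TMM factors, and the ages were compared by quasi-likelihood in edgeR (Benjamini-Hochberg adjustment over all genes tested). A call needed adjusted p below 0.05 plus a log2 fold change beyond 0.58 in size. Log2 CPM used a prior count of 2. The test was checked on simulated data. Libraries of 1 age differed by more than sampling noise (chi-square over its degrees of freedom, lowest 3.71), so no library was counted as deposited more than once. That each is a separate mouse rests on the study's methods, which call its replicates biological. Alternatives were DESeq2, other size factors and filters, limma on log2 TPM (pseudocounts 1 and 0.1) and on the normalized counts, close copies summed, the replicate number as a block, and each mouse left out. The tools were edgeR 4.0.16, DESeq2 1.42.0 and limma 3.58.1 in R 4.3.3, and Biopython 1.88.

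The genes named were all 10 effectors, their relatives, the ISG15 conjugation genes, the 3 largest called changes of each other pathway list and the 5 most similar genes. The 10 genes and all lists were chosen with earlier results of these data known. Other genes were named after their values were seen.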

Additional observations from a re-analysis of the deposited data

Results flagged for a closer look

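Among 64 checks of the highest and lowest mouse of an age group, over the effectors, their relatives, the ISG15 conjugation genes and the summed marker lists, 4 found a mouse far from the others of its group, where chance would give 3.2. The gap to the nearest other mouse is given as a share of the group's whole range on the log2 scale. Usp18 was low in young replicate 1 (gap 0.766), at 0.794 CPM with the prior count, where the other young mice lay between 1.49 and 1.81 CPM. Ifitm10 was low in young replicate 2 (gap 0.761), at 19.2 CPM against 22.0 to 22.9 CPM. Activated microglia markers summed to 446 CPM in young replicate 4 (gap 0.813), against 262 to 289 CPM in the other young mice. Astrocyte markers summed to 1453 CPM in the same mouse (gap 0.790), against 1138 to 1198 CPM. None of the 10 effectors was among the 4.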

How the results depend on the processing

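Each of the 10 effectors kept a higher level in old brain in every alternative fit, and 8 of them (all but Ifit2 and Ifitm2) were called in each fit in which they had a row. The number called was 7 of 8 rows with close copies summed, 8 to 10 under other settings and 8 to 9 when single mice were left out. Ifit2 had a log2 fold change of 0.29 (limma, adjusted p = 0.46) with log2(TPM + 1) and 0.33 (0.45) with log2(TPM + 0.1). Ifitm2 was under the fold threshold in these TPM fits (0.54 and 0.57), without old replicate 4 (0.53) and with both mice numbered 4 left out (0.55). On the TPM scales the median of all genes was -0.14 and -0.16, and 217 genes were called higher and 163 lower with log2(TPM + 1), against 421 and 74 by edgeR. With log2(TPM + 1) 14 of the pathway list genes were called, against 24, and 21 to 25 when single mice were left out. No filter on low counts gave 598 genes called higher and 94 lower. The cause of these shifts was not tested.

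The labels link same-numbered young and old mice by the number alone. The correlations of their deviations were 0.17, -0.12, 0.09 and -0.02 for numbers 1, 3, 4 and 5. Young replicates 1 and 4 correlated best with the old mouse of their own number, and young replicates 3 and 5 did not. Whether equal numbers share a step of processing cannot be told from these values. With the replicate block 9 effectors, 24 pathway list genes and 402 genes higher and 68 lower were called. For pairs of effectors, 23 with a prior count of 0.5 and 21 with log2(TPM + 0.1) had an unadjusted exact permutation p under 0.05 and 0 an adjusted one. With 1 mouse left out, only 56 or 70 divisions remain, and 0 pairs passed. So few divisions put an adjusted p under 0.05 nearly out of reach, so no conclusion is drawn from these fits. Isg15, with 27 to 36 counts per young library, and Rsad2, with 20 to 45, were limited most by depth.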
